A study of Mus musculus with 18 samples.

Results

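Wildtype myoblasts were compared 2 days after serum reduction (WT D2, 3 libraries) with the same cells at confluence, before serum was reduced (WT D0, 3 libraries). These 6 of the 18 libraries in the series were taken by their labels, and all 17672 genes with enough reads of the 19153 listed were tested. The cells were an immortalized line of mouse myoblasts on a p53 knockout background, with LAP2alpha left intact. D0 cells were in medium with 20% fetal calf serum, and D2 cells had been in 5% serum for 48 hours. The wildtype line is a control population that had received the Cas9 plasmid without a guide and was sorted as a pool, so it is 1 line and not a set of independent clones. LAP2alpha knockout (KO) cells of the same origin and stages are described only where their D0 to D2 change is compared. Their libraries still entered the fit of all 18 libraries, and so the choice of genes tested and the spread behind every p-value. The labels call D0 confluent, while the methods place it shortly before full confluence. Nothing in the labels says that the 3 libraries of a group came from separate cultures, so the p-values measure only the spread between these libraries.

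Myogenic differentiation is driven by a family of basic helix-loop-helix factors that bind E-box sequences together with MEF2 factors. Committed myoblasts leave the cell cycle, express myogenin, fuse into multinucleated myotubes and assemble sarcomeres, the repeated units of thick and thin filaments that shorten when calcium is released from internal stores. In culture the process is started by high cell density and by withdrawal of the mitogens in serum. The interval from D0 to D2 covers this first step, while any effect of crowding itself before D0 falls outside it. Within the interval, serum reduction cannot be told apart from further crowding or from 48 hours of added time in culture.

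The libraries held 27515553 to 36977211 expected counts. Values are counts scaled to a common library size (CPM), and they are not divided by transcript length, so levels are compared here within a gene and never between genes. At these depths 3 counts, taken as the floor of detection in a library, correspond to 0.0957 to 0.137 CPM. A gene was called when its Benjamini-Hochberg adjusted p in limma was under 0.05 and its change was more than 1.5-fold. The first principal component, with 58.4% of the variance over the 6 libraries, separated D0 from D2. The second, with 23.2%, set replicate 1 of D0 and replicate 1 of D2 apart from the other four libraries. In both replicate 1 libraries the summed level of 35 extracellular matrix genes was the highest of its group and the summed level of 80 ribosomal protein genes the lowest. Counts below were therefore also taken with the replicate 1 libraries of the series left out, and are given where a count of called members differs by more than 1.5-fold. The bulk libraries cannot tell a change in the RNA of each cell from a change in the share of cells of one kind.

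Of the genes tested, 2494 were called higher at D2 (14.1%) and 1882 were called lower (10.6%), together 4376 genes or 24.8%. Scaling by library totals alone, which moved the median change of all genes from 0.00 to 0.13 on the log2 scale, gave 2912 higher and 1463 lower. Leaving out the replicate 1 libraries gave 3056 higher and 2503 lower. The higher genes moved further: 1098 rose more than 4-fold and 358 more than 16-fold, while 396 fell more than 4-fold and 33 more than 16-fold. Among the called genes, 276 had at most 3 counts in every D0 library and 42 had at most 3 in every D2 library. The 3 D2 libraries lay entirely on one side of the 3 D0 libraries in 5872 genes (33.2% of those tested), 4120 of them called.

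**Figure D1:**
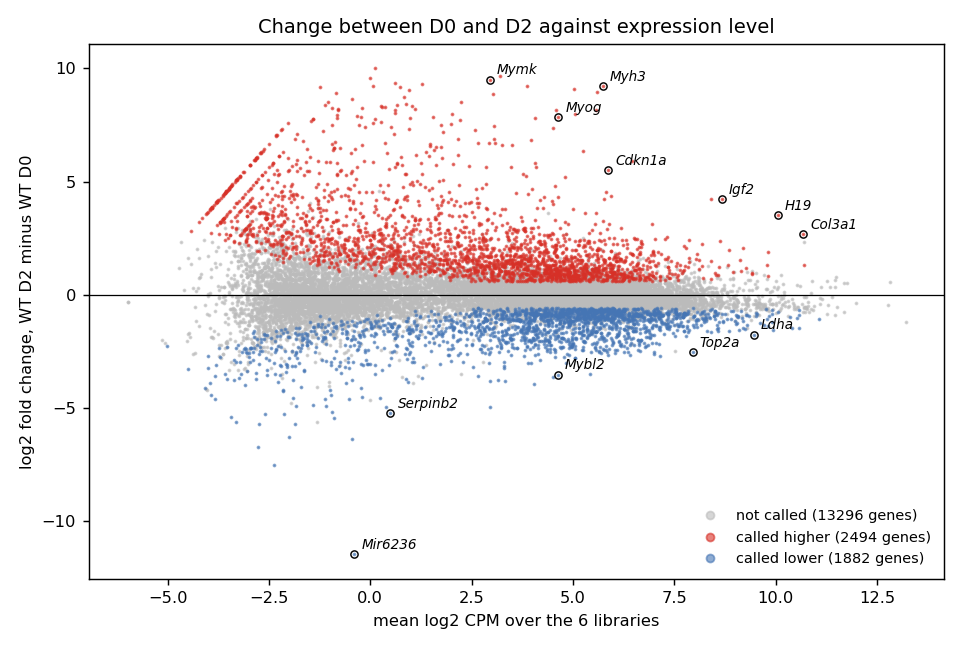
Log2 fold change (WT D2 minus WT D0) of each gene tested against its mean log2 CPM over the 6 libraries, with called genes in colour and 12 genes circled and named. The rises reach a log2 change of 10 (Capn3), while Mir6236, at -11.47, is the largest fall.

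Several factors that drive the muscle program rose. Of 17 myogenic regulators tested, 8 were called higher, 1 lower and 8 not called, with a median log2 change of 0.87 against 0.00 over all genes. Without the replicate 1 libraries 8 were higher and none lower. Myog, which encodes myogenin, the factor needed for terminal differentiation, was at 4.53, 0.775 and 1.23 CPM in the 3 D0 libraries and at 532, 386 and 261 CPM at D2. Its log2 change of 7.85 (SE 0.69, adjusted p = 1.43e-06) was the largest of the list, and the 2 stages did not come near each other. Myod1, the determination factor that opens muscle genes, was already read at D0, at 2.51, 1.53 and 3.42 CPM, and stood at 99.7, 88 and 79 CPM at D2 (log2 change 5.23, SE 0.53, adjusted p = 4.71e-06). Its partner Mef2c went from 5.7, 1.98 and 2.76 CPM to 117, 65.8 and 69.9 CPM (log2 change 4.69). Smyd1, a methyltransferase that acts in the assembly of sarcomeres, rose by a log2 change of 6.69, and Mef2a, Tead4 and Mef2d rose by 2.11, 1.90 and 0.88. Myf5, the early determination factor of the same family, moved the other way, from 27, 37.1 and 24.1 CPM to 11.6, 19.8 and 21.4 CPM. Its fall of 0.77 on the log2 scale was close to the limit (adjusted p = 0.0497). That call was lost without D0 replicate 1, 2 or 3 or D2 replicate 1 or 2, with log2 changes from -0.90 to -0.49, and it was lost when library totals alone were used. Myf6, the last member of the family, was at 0.208, 0.258 and 0.215 CPM before and 0.342, 1.05 and 0.436 CPM after, and was not called (adjusted p = 0.206).

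Inhibitors of these factors and the Notch pathway did not move as 1 group. Id proteins bind the partners of MyoD and keep it from DNA. Id1 fell from 120, 176 and 187 CPM to 74.4, 47.9 and 38.8 CPM (log2 change -1.61, SE 0.27, adjusted p = 0.000317). Id2 (log2 change -0.94, adjusted p = 0.0724) and Id3 (log2 change -0.61, adjusted p = 0.0689) did not pass the test, although all 3 D2 libraries were below all D0 libraries for Id3. Both passed without D2 replicate 1 (-1.17 and -0.73), and Id2 also without D0 replicate 1 (-1.46). Hes6, a relative of the Hes repressors that favours differentiation, rose from 8.43, 11.9 and 6.47 CPM to 55.9, 62.3 and 52.9 CPM (log2 change 2.72). The Notch ligand Dll1 rose most in this list, from 0.432, 0.155 and 0.254 CPM to 19.1, 17.4 and 19.8 CPM (log2 change 6.19). The Notch target genes Heyl, Hes1 and Hey1 were called higher. Heyl had 3 counts over the D0 libraries and 66 over the D2 libraries, a ratio of 17.9 with a 95% exact interval of 5.85 to 88.8 for counting error alone, and its call was lost without D0 replicate 2 (2.95) or D2 replicate 3 (3.13). The call of Hes1 (log2 change 0.92) was lost without D2 replicate 1 (0.58), D0 replicate 1 (0.78) or D0 replicate 2 (0.89). That of Hey1 (log2 change 1.16) was lost whichever of the 6 libraries was left out, with changes from 0.91 to 1.33. The receptor Notch3 ranged from 19.7 to 133 CPM at D0 and from 82.9 to 101 CPM at D2, the high D0 value being that of replicate 1, and was not called (log2 change 1.22), but passed without that library (log2 change 2.11, adjusted p = 0.00053). Over the whole list of 19 tested, 6 were higher, 1 was lower and the median log2 change was 0.53, beside 14.1% higher and 10.6% lower over all genes. Without the replicate 1 libraries 7 were higher and 4 lower.

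Genes whose products fuse the membranes of myoblasts were among the strongest changes, while most general adhesion genes of the same list were not called. Mymk, the membrane protein myomaker, was at 0.912, 0.12 and 0.215 CPM at D0 and at 357, 172 and 148 CPM at D2 (log2 change 9.5, SE 0.83, adjusted p = 1.36e-06). Mymx, the short peptide that completes the fusion step, was at 0.336, 0.0516 and 0.0196 CPM and then at 37.5, 50.6 and 33.6 CPM (log2 change 9.16). The D0 values of both genes were highest in replicate 1, and without that library their log2 changes were 10.34 and 10.30. Cdh15, the muscle cadherin, rose from 5.23, 0.878 and 2.95 CPM to 189, 99.2 and 91.5 CPM (log2 change 5.65), and Tmem182, Itga7 and Jam2 rose by 6.64, 4.79 and 1.99. Ncam1 and Vcam1 overlapped between the groups and were not called (log2 changes 0.71 and 0.10). In all, 8 of 22 tested rose, none was called lower, and the median log2 change was 0.54.

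Most sarcomere genes rose. In the thick filament 17 of 19 genes tested were called higher and none lower (median log2 change 6.63). In the thin filament 16 of 19 were higher and 1 lower (median 6.71). Among proteins of the M-band, the Z-disc and titin, 20 of 24 were higher and none lower (median 4.66, or 4.48 with the 6 genes at the floor in D0 set to 3 counts). Without the replicate 1 libraries 1 gene was lower in the thick filament list and 1 in the Z-disc list. The summed level of the 19 thick filament genes was 39.4, 18.3 and 20 CPM in the D0 libraries and 4663, 3639 and 2972 CPM in the D2 libraries. Myh3, the embryonic myosin heavy chain, went from 11.3, 0.772 and 1.19 CPM to 2070, 1001 and 1049 CPM (log2 change 9.21, SE 1.03, adjusted p = 1.05e-05). The perinatal chain Myh8 rose from 0.668, 0.642 and 0.424 CPM to 25.1, 15 and 17.3 CPM (log2 change 5.04), and the slow chain Myh7 from 0.71, 0.0861 and 0.0587 CPM to 58.5, 14.5 and 17.8 CPM (log2 change 7.34). The genes of this family are near copies of each other and short reads are divided among them by a model, so the split between members is uncertain. Mybph, a myosin-binding protein, had the largest log2 change of the list, 9.65 (SE 0.94), from 1.01, 0.189 and 0.176 CPM to 335, 255 and 202 CPM. The light chains Myl1, Myl4 and Mylpf rose by 8.18, 8 and 8.17.

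Of the actins and their regulators, Acta1, the skeletal actin, went from 7.83, 0.993 and 1.31 CPM to 1701, 896 and 810 CPM (log2 change 8.95), and Actc1, the cardiac actin that embryonic muscle also uses, from 3.5, 0.809 and 0.958 CPM to 1402, 610 and 506 CPM (log2 change 9.08, SE 0.71, adjusted p = 5.2e-07). Both slow and fast troponins rose. The slow forms Tnni1, Tnnt1 and Tnnc1 changed by 6.35, 6.62 and 7.36 and the fast forms Tnni2, Tnnt3 and Tnnc2 by 8.52, 7.79 and 8.85. Tnnt2, the cardiac and embryonic troponin T, was already at 9.78, 10 and 16.8 CPM at D0 and reached 383, 272 and 191 CPM (log2 change 4.52). Lmod3, which nucleates thin filaments, had the largest rise (9.30). Tpm3, a tropomyosin also used outside the sarcomere, was the 1 thin filament gene called lower, from 611, 586 and 744 CPM to 347, 293 and 289 CPM (log2 change -1.06).

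Ttn, the giant spring of the sarcomere, was at 15.8, 0.396 and 0.489 CPM at D0 and at 427, 93 and 114 CPM at D2 (log2 change 6.83, SE 1.25, adjusted p = 0.000756). Replicate 1 was highest at both stages, and the change was 8.55 without D0 replicate 1 and 5.89 to 6.15 without D0 replicate 2, D0 replicate 3 or D2 replicate 1. Xirp1 and Des, the muscle intermediate filament desmin, rose by 6.88 and 5.20. Actn2, the Z-disc actinin, had 5 counts over the D0 libraries and 2324 over the D2 libraries, a ratio of 377 with a 95% exact interval of 162 to 1164. Csrp3 had 4 and 601 counts, a ratio of 122 with an interval of 47.4 to 449. Tcap was at 0.112, 0.224 and 0.0978 CPM and then at 0.908, 0.861 and 0.773 CPM, and did not pass the test (adjusted p = 0.055). Ankrd1 was at 159, 176 and 230 CPM before serum was reduced and at 257, 111 and 109 CPM after it, overlapping between the stages.

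**Figure D2:**
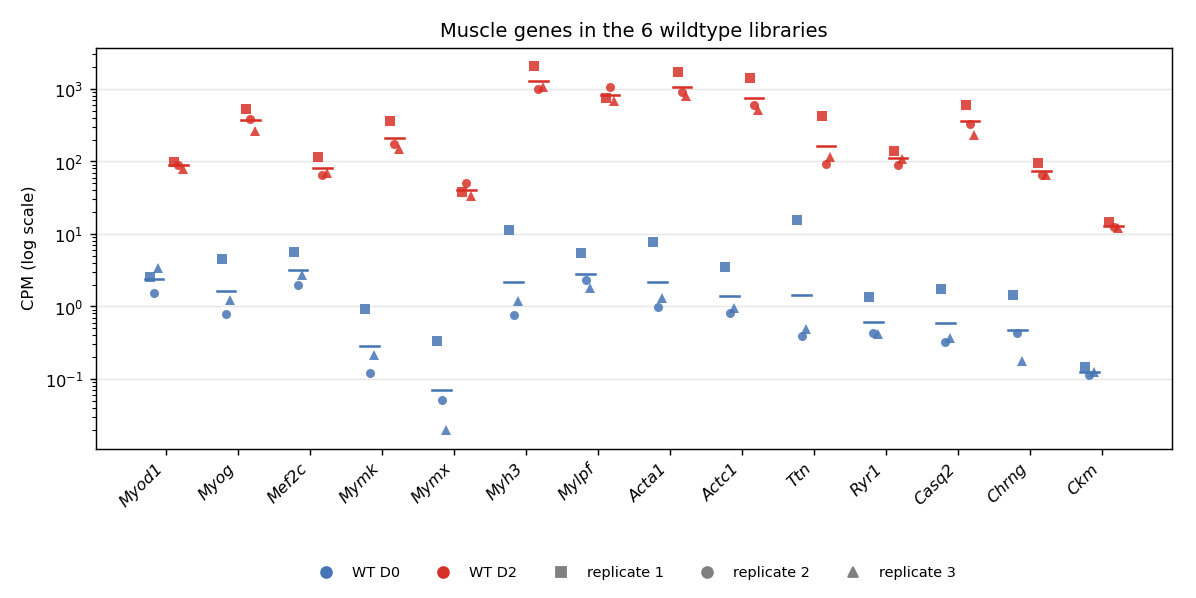
CPM (log axis) of 14 muscle genes in each wildtype library, D0 in blue and D2 in red, with the symbol giving the replicate and the bar the geometric mean of 3 libraries. The D2 libraries lie above the D0 libraries in all 14 genes, and D0 replicate 1 is the highest D0 library in 13 of them, with Myod1 as the exception.

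The upstream sequences of the regulator, the thick filament gene and the thin filament gene that changed most among the key members of their lists are shown because they hold the kinds of motif through which such genes are known to be controlled. Each is the run of 250 bases before the annotated start in RefSeq on GRCm38.p6, given 5′ to 3′ on the strand of the gene. Capitals mark E-boxes (CANNTG), the TATAAA box and the CArG box that serum response factor binds, on either strand. The MEF2 motif was searched only in a strict form, which had no match in these windows, and looser forms were not searched. The Myog window lies at chr1:134289754-134290003 (plus strand), the Mybph window at chr1:134193198-134193447 (plus strand) and the Actc1 window at chr2:114052876-114053125 (minus strand).
Myog: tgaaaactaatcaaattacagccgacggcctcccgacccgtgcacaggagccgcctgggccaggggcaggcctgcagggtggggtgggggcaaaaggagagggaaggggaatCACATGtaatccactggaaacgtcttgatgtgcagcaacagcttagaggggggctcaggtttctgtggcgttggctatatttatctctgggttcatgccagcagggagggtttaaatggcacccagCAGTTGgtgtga
Mybph: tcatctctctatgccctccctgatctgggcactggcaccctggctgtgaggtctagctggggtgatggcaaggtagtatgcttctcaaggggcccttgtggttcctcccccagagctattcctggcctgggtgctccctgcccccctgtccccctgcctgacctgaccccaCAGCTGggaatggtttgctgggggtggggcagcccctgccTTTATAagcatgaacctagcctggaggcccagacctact
Actc1: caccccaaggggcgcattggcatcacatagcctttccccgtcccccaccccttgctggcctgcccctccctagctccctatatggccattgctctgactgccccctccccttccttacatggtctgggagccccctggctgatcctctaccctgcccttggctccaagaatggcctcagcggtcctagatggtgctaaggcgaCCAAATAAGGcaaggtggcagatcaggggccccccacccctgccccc
The Myog window held 2 E-boxes, the Mybph window 1 E-box of the form CAGCTG and a TATAAA box on the opposite strand, and the Actc1 window 1 CArG box, starting 47 bases before the start of transcription.

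Genes for calcium release and uptake followed the sarcomere. Of 22 genes of the triad, where the surface membrane meets the calcium store, 20 were called higher and none lower, with a median log2 change of 5.38 (4.93 with the 2 genes at the floor set to 3 counts). Ryr1, the release channel, went from 1.34, 0.43 and 0.411 CPM to 139, 88.7 and 108 CPM (log2 change 7.47, SE 0.58, adjusted p = 4.97e-07). Cacna1s, the voltage sensor that opens it, was at 0.368, 0.0172 and 0.0587 CPM at D0 and at 36.1, 18.2 and 17.8 CPM at D2 (log2 change 8.30). Casq2, the calcium buffer of the store, had the largest rise of the list, from 1.74, 0.327 and 0.372 CPM to 598, 325 and 233 CPM (log2 change 9.22, or 10 without D0 replicate 1). The fast calcium pump Atp2a1 rose by 7.73, the membrane organizers Jph2 and Cav3 by 5.31 and 8.20, and the channel partners Stac3 and Cacng1 by 4.55 and 6.51. Atp2a2, the calcium pump of most cell types, was not called (log2 change 0.27).

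Components of the neuromuscular junction, where nerve meets muscle, rose in most cases. Of 15 tested, 11 were called higher and none lower (median log2 change 3.46, or 2.42 with the 2 genes at the floor set to 3 counts). The acetylcholine receptor subunit Chrna1 went from 20.6, 8.66 and 10.9 CPM to 349, 199 and 186 CPM (log2 change 4.23, SE 0.33). Chrng, the fetal subunit, went from 1.46, 0.43 and 0.176 CPM to 96.5, 65.2 and 65.5 CPM (log2 change 7.28), and Chrnd and Chrnb1 rose by 6.19 and 2.18. The receptor kinase Musk and the clustering protein Rapsn rose by 2.40 and 3.46. Erbb3, a neuregulin receptor, had the largest rise, from 0.272, 0.0861 and 0.0978 CPM to 52, 23.5 and 21.7 CPM (log2 change 7.82), while its partner Erbb2 and the ligand Nrg1 were not called.

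The dystrophin complex, which ties the cytoskeleton to the matrix, was called in part, with 7 of 15 tested higher, none lower and a median log2 change of 1.37. Dmd itself stayed low, at 0.113, 0.0782 and 0.137 CPM and then at 0.967, 1.26 and 0.816 CPM (log2 change 3.23, adjusted p = 0.000181). Sgca, a sarcoglycan, rose by 5.82, and Cavin4, a muscle caveolar protein, from 17.7, 29.1 and 22.9 CPM to 174, 114 and 85.2 CPM (log2 change 2.38).

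Of 27 genes of energy metabolism 14 were called higher and 3 lower (median log2 change 1.12). Ckm, muscle creatine kinase, went from 0.144, 0.113 and 0.123 CPM to 14.7, 12.3 and 12.2 CPM (log2 change 6.69, SE 0.48, adjusted p = 2.27e-07). Pgam2, Pygm and Mb (myoglobin) rose by 6.26, 4.70 and 6.50. Cox8b, a muscle subunit of cytochrome c oxidase, had 1 count over the D0 libraries and 564 over the D2 libraries. Eno3, the muscle enolase, was already at 97.3, 148 and 122 CPM at D0 and reached 198, 248 and 192 CPM (log2 change 0.81), a call that was lost without D2 replicate 2 (0.69). Ldha, which makes lactate, fell from 1136, 1292 and 1488 CPM to 416, 407 and 328 CPM (log2 change -1.77, SE 0.21, adjusted p = 1.63e-05), and Pgam1 and Phkg1 fell by 1.31 and 1.47.

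D0 replicate 1 was the highest D0 library for many muscle genes and the lowest for others, among them Tnni1, Tnnt2, Cavin4, Eno3 and Pygm. Without D0 replicate 1 several of the rises above grew by more than 1.5-fold. The log2 changes were then 8.59 for Myog, 10.47 for Mybph, 10.40 for Myh3, 8.44 for Myh7, 9.88 for Acta1, 9.75 for Actc1, 8.64 for Tnnt3, 7.23 for Tnnt1, 8.78 for Myl1 and 10.52 for Lmod3. They were 9.48 for Cacna1s, 8.41 for Atp2a1, 8.08 for Chrng, 6.90 for Chrnd, 7.32 for Mb, 5.98 for Des and 6.04 for Jph2, and that of Tnni1 was smaller (5.76). Without D0 replicate 2 the changes were smaller for Mymk (8.88), Lmod3 (8.05), Myh3 (8.46), Smyd1 (6.01), Cdh15 (4.93), Tnnt3 (7.15), Cacna1s (7.27) and Mb (5.64). Without D0 replicate 3 they were smaller for Mymx (8.24), Myh7 (6.65), Atp2a1 (7.12) and Chrng (6.55), and without D2 replicate 1 for Myh7 (6.72) and Xirp1 (6.29). All these genes kept their calls.

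Among genes that control entry into the cell cycle, an inhibitor rose and a D cyclin fell. Cdkn1a, the p21 inhibitor of cyclin-dependent kinases, went from 12.7, 5.01 and 10.1 CPM to 662, 327 and 278 CPM (log2 change 5.51, SE 0.36, adjusted p = 1.25e-07), in cells labelled as p53 knockout. Rb1, the retinoblastoma protein that holds E2F factors inactive, rose from 14, 5.8 and 7.68 CPM to 68.5, 30 and 33.1 CPM (log2 change 2.26). Of the D cyclins, which start the cycle, Ccnd1 fell from 194, 121 and 263 CPM to 47.1, 28.6 and 34.8 CPM (log2 change -2.34). Ccnd3 moved from 82.2, 38 and 55.5 CPM to 163, 85.5 and 84.1 CPM (log2 change 0.92), a call lost without D0 replicate 2 (0.64), D0 replicate 3 (0.92) or D2 replicate 1 (0.61). Ccne2 fell by 2.45 on the log2 scale, with replicate 1 the lowest library at both stages, and its call was lost without D0 replicate 2 (-2.13), D0 replicate 3 (-2.18) or D2 replicate 1 (-1.67), and the change was -3.05 without D0 replicate 1. E2f1 went from 45.9, 30 and 41.3 CPM to 19.2, 22.3 and 23.8 CPM (log2 change -0.83, adjusted p = 0.00428). The inhibitors Cdkn1c (log2 change 2.38, adjusted p = 0.0572) and Cdkn2c (0.07) were not called, but Cdkn1c passed without D0 replicate 2 (2.94) or D2 replicate 1 (2.88). Reads of Trp53 were counted in all 6 libraries, at 92.5, 109 and 112 CPM and then at 46.9, 54 and 57.7 CPM (log2 change -0.99), and a sum over the gene does not show which of its exons they cover. Over the 28 genes of this list 5 were higher and 9 lower, with a median log2 change of -0.21. The higher share was near the 14.1% over all genes, and 10.6% of all genes were lower.

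DNA replication genes fell nearly throughout. Of 36 tested, 32 were called lower and none higher, with a median log2 change of -1.82, and the remaining members (Gins4, Rfc1, Rfc3 and Rfc4) had changes from -1.13 to -0.60. The helicase subunit Mcm5 went from 228, 140 and 199 CPM to 25.3, 34.4 and 37.4 CPM (log2 change -2.54, SE 0.29, adjusted p = 1.42e-05), and Mcm2 fell by 1.92. Cdc6, which loads the helicase, fell from 44.1, 32 and 51.7 CPM to 4.12, 8.08 and 8.91 CPM (log2 change -2.65). Rrm2, the regulated subunit that makes deoxynucleotides, went from 181, 188 and 287 CPM to 26.8, 38.5 and 37.1 CPM (log2 change -2.67, SE 0.24, adjusted p = 1.72e-06). Pcna, the sliding clamp, fell less, from 250, 534 and 480 CPM to 89.1, 181 and 151 CPM (log2 change -1.57), and Mcm10 fell most (-2.76).

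All 36 genes of the mitosis list were called lower, with a median log2 change of -2.24, all 36 with no overlap between the stages, and log2 changes from -3.53 to -1.05. Top2a, the topoisomerase that untangles chromosomes, was at 779, 413 and 664 CPM and then at 79.7, 114 and 119 CPM (log2 change -2.54, SE 0.33, adjusted p = 3.96e-05). Mki67, the proliferation antigen Ki-67, was at 464, 125 and 237 CPM and then at 33.2, 41.9 and 56 CPM (log2 change -2.49). Cdk1, the mitotic kinase, fell from 141, 271 and 251 CPM to 24.4, 67.9 and 57.1 CPM (log2 change -2.22), and its cyclins Ccna2 and Ccnb1 fell by 2.51 and 2.31. Mybl2, a transcription factor of the late cycle, fell most, from 87, 62 and 110 CPM to 4.12, 9.92 and 9.33 CPM (log2 change -3.53). In each of these genes the D2 level was still well above the floor. The summed CPM of the list was 5567, 4694 and 5817 at D0 and 741, 1389 and 1300 at D2.

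Histone genes that are transcribed during replication fell as well, with 36 of 59 tested called lower and 5 higher and a median log2 change of -2.50. Their main transcripts lack a poly(A) tail and the libraries were made from poly(A) RNA, so the values cover only the tailed fraction. Hist1h3h fell most, from 1.89, 3.08 and 1.87 CPM to 0.0149, 0.0137 and 0.11 CPM (log2 change -6.30, or -7.28 without D2 replicate 3), and Hist2h3b from 13.1, 3.15 and 4.55 CPM to 0.449, 0.155 and 0.198 CPM (-4.58, or -3.98 without D0 replicate 1). Hist1h2ba had the largest rise (log2 change 3.85), a call lost without D0 replicate 2 (2.62), D2 replicate 2 (3.64) or D2 replicate 3 (3.85). The genes are near copies, so their split is uncertain too.

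**Figure D3:**
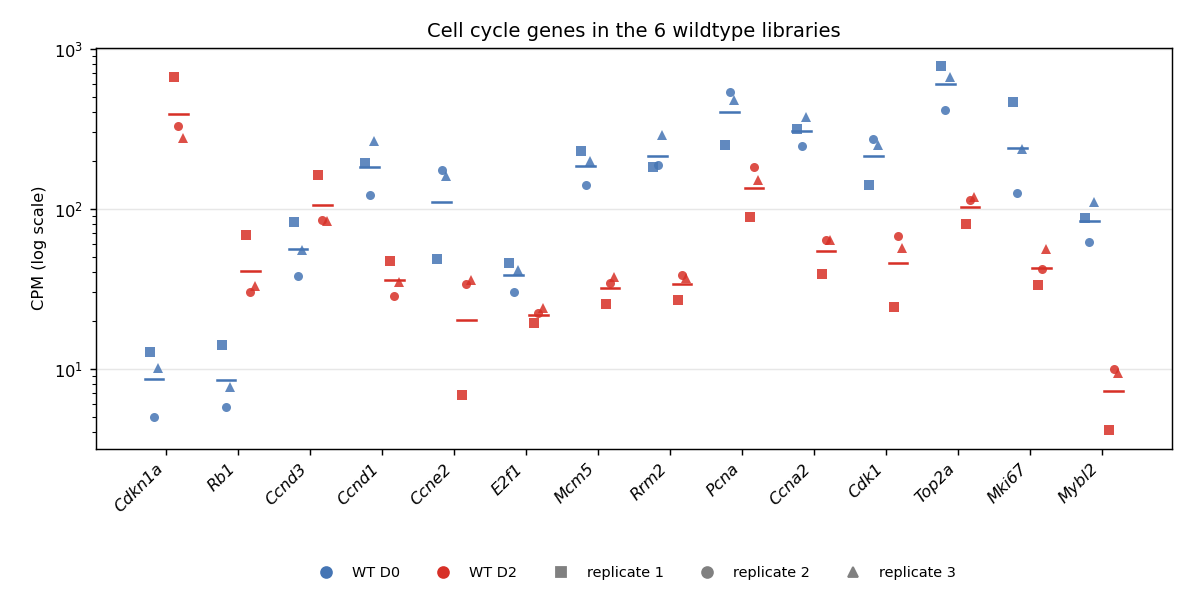
CPM (log axis) of 14 cell cycle genes in each wildtype library, D0 in blue and D2 in red, with the symbol giving the replicate and the bar the geometric mean of 3 libraries. Cdkn1a, Rb1 and Ccnd3 are higher in every D2 library, and the other 11 genes are lower in every D2 library.

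The key replication and mitosis genes with the largest falls are shown in the same way, since promoters of such genes are known for CCAAT boxes, E2F sites and the TTTGAA element that the DREAM complex recognizes. Capitals mark CCAAT and TTTGAA on either strand, as no searched E2F letters (TTTCGCGC, TTTGGCGC or TTTCCCGC) stood in these windows. The Rrm2 window lies at chr12:24708004-24708253 (plus strand) and the Top2a window at chr11:99024190-99024439 (minus strand).
Rrm2: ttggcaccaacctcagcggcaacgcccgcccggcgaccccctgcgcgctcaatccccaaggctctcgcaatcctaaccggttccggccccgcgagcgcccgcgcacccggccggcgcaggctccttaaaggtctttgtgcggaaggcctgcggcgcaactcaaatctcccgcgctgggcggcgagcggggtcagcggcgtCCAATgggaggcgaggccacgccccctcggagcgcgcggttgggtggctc
Top2a: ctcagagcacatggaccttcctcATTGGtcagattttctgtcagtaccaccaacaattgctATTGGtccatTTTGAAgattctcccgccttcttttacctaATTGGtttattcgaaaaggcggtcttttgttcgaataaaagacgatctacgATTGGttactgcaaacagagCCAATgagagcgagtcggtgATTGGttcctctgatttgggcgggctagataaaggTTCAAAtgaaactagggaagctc
The Top2a window held 6 CCAAT matches and 2 TTTGAA matches, one of which starts 23 bases before the start of transcription and overlaps an E-box. The Rrm2 window held 1 CCAAT match, 50 bases before the start.

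Promoters of all called genes were then described with the same motifs, in windows of 300 bases (250 before and 50 after each start), for the 11517 of 17672 genes tested that had a RefSeq promoter. No test was made, and a match is only a run of letters. CAGCTG stood in 22.7% of the promoters of called higher genes, 13% of those of called lower genes and 15.9% of those of all genes tested. The wider E-box CANNTG, which includes CAGCTG, stood in 72.2%, 60.8% and 64.6%. TTTGAA was held by 11.1% of the higher, 19.9% of the lower and 12.5% of all tested promoters, and CCAAT by 36.4%, 43.1% and 37.8%. The 3 E2F words were held by 1.54%, 7.09% and 3.18%. TATAAA was held by 10.5%, 7.6% and 7.85%, TGANTCA by 6.92%, 4.6% and 5.53%, the MEF2 motif by 0.875%, 0.319% and 0.469%, and the CArG box by 1.67%, 1.28% and 1.43%. The median GC content was 59%, 60.7% and 60.3%.

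Genes that respond to serum and growth factors within hours were called in both directions 2 days after serum was reduced. Of 29 tested, 4 were called higher, 4 lower and the median log2 change was 0.18. These shares were near the 14.1% called higher and 10.6% called lower over all genes tested. Without the replicate 1 libraries 3 were higher and 12 lower, with a median of -0.45. In that fit 3056 of all 17672 genes were higher and 2503 lower. The feedback inhibitors Spry1 and Spry4 rose, Spry1 from 5.07, 4.63 and 6.55 CPM to 47, 52.6 and 57.3 CPM (log2 change 3.28, SE 0.19, adjusted p = 9.25e-08) and Spry4 by 2.50. Areg, an EGF receptor ligand, fell most (log2 change -3.07), and its call was lost without D0 replicate 3 (-2.51), while the change was -3.69 without D2 replicate 1 and -2.37 without D2 replicate 3. The AP-1 member Fosl1 went from 38.5, 44.3 and 109 CPM to 27.1, 5.38 and 6.48 CPM (log2 change -2.54), with the call lost without D0 replicate 3 (-2.07), D2 replicate 2 (-2.11) or D2 replicate 3 (-2.24), and the change was -3.27 without D2 replicate 1. Myc was at 136, 86 and 152 CPM and then at 101, 41.9 and 44.2 CPM (log2 change -1.08, adjusted p = 0.0452). The stages overlapped, and the call was lost without D0 replicate 1 or 3 or D2 replicate 2 or 3, with log2 changes from -1 to -0.86 in those fits, and with median-of-ratios scaling. Fos, Egr1, Dusp6, Ccn2 and Hbegf overlapped between the stages and were not called, but Fos passed without D2 replicate 2 (1.64) and Hbegf without D2 replicate 1 (-2.59). In D2 replicate 1 they stood above the other D2 libraries, for example Ccn2 at 179 CPM against 16.1 and 28 CPM.

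Matrix genes rose in part, among them a fibrillar collagen and small proteoglycans. Of 35 extracellular matrix genes, 14 were called higher and none lower, with a median log2 change of 1.32. Without the replicate 1 libraries 20 were higher and 1 lower. Col3a1 rose from 1145, 458 and 516 CPM to 6630, 3275 and 3210 CPM (log2 change 2.67, SE 0.46, adjusted p = 0.000462), and the stages did not overlap. Col1a1 was at 4081, 273 and 371 CPM and then at 12263, 1797 and 2351 CPM, so that D0 replicate 1 was above D2 replicates 2 and 3, and it did not pass the test (log2 change 2.32, adjusted p = 0.115). Without D0 replicate 1 it passed (log2 change 3.55, adjusted p = 0.0121). Postn, a matricellular protein, rose from 249, 39.9 and 48.2 CPM to 3289, 896 and 1026 CPM (log2 change 4.21, or 5.04 without D0 replicate 1 and 3.62 without D2 replicate 1). Dcn, the proteoglycan decorin, had the largest rise, from 0.848, 0.189 and 0.0978 CPM to 63.8, 49.5 and 30.1 CPM (log2 change 7.51, or 8.39 without D0 replicate 1 and 6.83 without D0 replicate 3). Mgp and Col15a1 rose by 2.16 and 1.90, whereas Col4a1, Fn1 and Tnc overlapped between the stages. Within each replicate number Col1a1, Col4a1 and Fn1 were nevertheless higher at D2, unlike Tnc. Markers of fibroblasts moved with the matrix genes, since 6 of 8 were called higher and their summed level was 36.7 to 133 CPM at D0 and 265 to 320 CPM at D2. Pdgfra, Dpt and Dcn were among them (log2 changes 1.97, 6.68 and 7.51), and Dcn and Lum stand in both lists. The part of fibroblast-like cells in these changes was not tested.

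Proteases and their inhibitors changed one by one. Of 19 tested, 7 were higher and 2 lower, with a median log2 change of 0.97, and without the replicate 1 libraries 9 were higher and 4 lower. In the main fit the lower share was near the 10.6% over all genes, and 14.1% of all genes were higher. The gelatinase Mmp2 rose from 28.7, 4.32 and 5.22 CPM to 444, 55.8 and 66.1 CPM (log2 change 3.77, or 4.63 without D0 replicate 1 and 2.81 without D2 replicate 1). Mmp9 rose from 1.42, 2.67 and 1.82 CPM to 47, 7.09 and 6.26 CPM (log2 change 2.75, or 1.81 without D2 replicate 1). Mmp3 had 2 counts over the D0 libraries and 184 over the D2 libraries, a ratio of 74.7 with a 95% exact interval of 20.4 to 622, and its fitted log2 change was 5.51, or 6.27 without D0 replicate 2 and 6.21 without D2 replicate 1. Serpinb2, an inhibitor of urokinase, fell from 0.88, 20.9 and 35.1 CPM to 0.521, 0.15 and 0.155 CPM (log2 change -5.23, SE 1.19, adjusted p = 0.00415). D0 replicate 1 stood near the D2 level, and without it the change was -6.88, against -4.60, -4.22 and -5.82 without D0 replicate 2, D0 replicate 3 and D2 replicate 1.

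The insulin-like growth factor axis rose on most of its levels, with 10 of 13 genes called higher, none lower and a median log2 change of 2.17. The ligand Igf2 went from 357, 33.3 and 69.9 CPM to 2968, 1349 and 1360 CPM (log2 change 4.23, SE 0.65, adjusted p = 0.000181). H19, the noncoding RNA transcribed from the same imprinted locus, went from 1093, 126 and 230 CPM to 5238, 2911 and 3004 CPM (log2 change 3.5). In both genes D0 replicate 1 was several times above the other D0 libraries, and without it the log2 changes were 5.19 and 4.39, while without D0 replicate 2 they were 3.48 and 2.83. Igf1 rose from 5.19, 2.15 and 1.19 CPM to 31.2, 30 and 27 CPM (log2 change 3.63). The binding protein Igfbp5 had the largest rise, from 23.1, 6.98 and 9.25 CPM to 896, 523 and 677 CPM (log2 change 5.90, SE 0.40, adjusted p = 1.53e-07), and Igfbp3 rose by 2.41. The receptor gene Igf1r was not called (log2 change 0.18).

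Other signalling genes changed less uniformly. In the TGF-beta, activin and BMP list 4 of 21 tested were higher and 4 lower (median log2 change 0.36). Over all genes tested 14.1% were higher and 10.6% lower. The inhibitory Smads fell, Smad7 from 50.8, 61 and 94.2 CPM to 24.1, 20.2 and 21.1 CPM (log2 change -1.61, adjusted p = 0.000217) and Smad6 by 1.54, the latter call being lost without D0 replicate 1 (-1.12), D2 replicate 2 (-1.39) or D2 replicate 3 (-1.37). Inhba, the activin subunit, fell from 79.5, 81.9 and 152 CPM to 38.7, 23.2 and 22.6 CPM (log2 change -1.87), and this call was lost without D0 replicate 3 (-1.56). Gdf6 had 0 counts over the D0 libraries and 26 over the D2 libraries, at least 2.11-fold higher against a floor of 3 counts in each library. Fst and Bmp4 overlapped between the stages.

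Receptors for growth factors were called in part, with 4 of 11 genes higher and 1 lower (4 and 2 without the replicate 1 libraries, median log2 change 0.41). The main fit called 14.1% of all genes higher and 10.6% lower. Met, the receptor of hepatocyte growth factor, fell from 142, 87.6 and 174 CPM to 62.2, 32.5 and 47.8 CPM (log2 change -1.5), with the call lost without D0 replicate 3 (-1.28) or D2 replicate 2 (-1.25). Fgfr4, the receptor associated with differentiating muscle, had 7 counts over the D0 libraries and 119 over the D2 libraries, a ratio of 13.8 with a 95% exact interval of 6.5 to 35.1. Fgfr1 was called higher (log2 change 0.88), and this was lost without D0 replicate 2 (0.68), D0 replicate 3 (0.94), D2 replicate 1 (0.51) or D2 replicate 3 (1). The call of Pdgfra (log2 change 1.97) was lost without D0 replicate 2 (1.61), D0 replicate 3 (1.72), D2 replicate 1 (1.74) or D2 replicate 3 (1.93). Without D0 replicate 1 the change of Pdgfra was 2.57. Egfr was not called (log2 change 1.62, adjusted p = 0.0629), but passed without D0 replicate 1 (2.22) or D2 replicate 2 (2.05).

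Sterol synthesis genes rose nearly throughout. Of 24 genes of sterol and fatty acid synthesis, 21 were called higher and none lower, with log2 changes from -0.12 to 2.26 and a median of 1.51. Insig1, which retains the sterol sensor in the endoplasmic reticulum, went from 30.8, 47.5 and 29.4 CPM to 173, 152 and 161 CPM (log2 change 2.21, SE 0.23, adjusted p = 5.1e-06). Scd1, the desaturase, went from 95.3, 30.5 and 37.9 CPM to 275, 183 and 240 CPM (log2 change 2.26). Sqle and Hmgcs1, enzymes of the pathway, rose by 1.58 and 1.52. Fasn and Acaca, which make fatty acids, were not called (log2 changes 0.05 and -0.12).

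Targets of ATF4, the factor of the amino acid response, fell in part, with 8 of 23 lower, 1 higher and a median log2 change of -0.55. The serine synthesis enzymes Psat1 and Phgdh fell, Psat1 from 681, 1132 and 1209 CPM to 440, 353 and 290 CPM (log2 change -1.46, adjusted p = 0.000657) and Phgdh by 1.5. Asns, asparagine synthetase, fell by 1.38. The cystine transporter Slc7a11 fell most (-1.83), a call lost without D0 replicate 3 (-1.55), D2 replicate 2 (-1.62) or D2 replicate 3 (-1.60), and the call of Mthfd2 (-1.19) was lost without D0 replicate 3 (-1.05) or D2 replicate 3 (-0.98). Ddit3 moved the other way, from 27.5, 21.2 and 15.7 CPM to 45.3, 44.9 and 38.7 CPM (log2 change 1.04). Trib3 and Gdf15 overlapped between the stages.

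Interferon-response and antigen-presentation genes were called in part. Of 23 tested, 12 were called higher and none lower, with a median log2 change of 1.31. Nlrc5, the regulator of MHC class I genes, had 5 counts over the D0 libraries and 135 over the D2 libraries, a ratio of 21.9 with a 95% exact interval of 9.17 to 68.6, and its fitted log2 change was 4.44, or 3.66 without D0 replicate 3. Irf7, Usp18, Ifit3 and Mx2 rose by 3.23, 3.88, 3.85 and 3.60, and were picked for mention after their values were seen. The call of H2-K1 (log2 change 1.64) was lost without D0 replicate 2 (1.43), D0 replicate 3 (1.48), D2 replicate 1 (1.10) or D2 replicate 3 (1.79). B2m, H2-D1, Isg15 and Psmb8 overlapped between the stages and were not called, but Isg15 passed without D2 replicate 1 (1.28). Of 7 immune cell markers, 2 were analysed here, Cd68 (not called) and Csf1r (lower by 1.53 on the log2 scale), and they summed to 5.02 to 6.37 CPM at D0 and 3.72 to 4.42 CPM at D2.

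Among 19 nuclear envelope genes 2 rose and 6 fell, with a median log2 change of -0.43. The share that rose was no larger than the 14.1% over all genes, of which 10.6% fell. The list holds Tmpo, whose isoform LAP2alpha is the knockout target of the series. The paper describes this isoform as spread through the nucleus and without the membrane domain of the others. Lmnb1, a B-type lamin, fell most, from 257, 137 and 203 CPM to 56.2, 42.9 and 47.2 CPM (log2 change -1.99, SE 0.34, adjusted p = 0.00042). Lbr, the lamin B receptor, fell from 82.9, 100 and 107 CPM to 40.7, 46 and 38.3 CPM (log2 change -1.21). Tmpo, the gene that encodes LAP2alpha and the other LAP2 isoforms, fell from 257, 239 and 302 CPM to 106, 150 and 157 CPM (log2 change -0.97, adjusted p = 0.00294), and the values are sums over its isoforms. Lmna, which encodes the A-type lamins, was at 925, 474 and 758 CPM and then at 1068, 400 and 413 CPM and was not called (log2 change -0.30). Plpp7, a muscle protein of the nuclear envelope, rose from 0.464, 0.155 and 0.0196 CPM to 5.88, 5.67 and 5.39 CPM (log2 change 5.65, or 6.68 without D0 replicate 1 and 4.40 without D0 replicate 3). Syne1 rose by 1.64, and that call was lost without D0 replicate 2 (1.32), D0 replicate 3 (1.47) or D2 replicate 1 (1.20).

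Chaperones and ubiquitin ligases of muscle rose in part (11 of 21 higher, 2 lower, median log2 change 1.16). Unc45b, the myosin chaperone, went from 0.208, 0.12 and 0.0587 CPM to 51.4, 32.9 and 30.2 CPM (log2 change 8.35, SE 0.51, adjusted p = 9.25e-08). Cryab, a small heat shock protein, rose by 3.61. Of the ligases linked to atrophy, Trim63 rose from 0.272, 0.128 and 0.0587 CPM to 28.2, 13.2 and 14.8 CPM (log2 change 7.12), while Fbxo32 overlapped between the stages (log2 change 0.79, adjusted p = 0.0891), but passed without D2 replicate 2 (1.11). Asb4 fell from 240, 224 and 220 CPM to 75.7, 61.1 and 54.9 CPM (log2 change -1.85).

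Contractile genes of smooth muscle and of non-muscle cells showed no larger share of calls than the 24.8% over all genes. Of 14 tested, 2 were higher and 1 lower (2 and 3 without the replicate 1 libraries), with a median log2 change of -0.32. Acta2, the smooth-muscle actin that early myotubes also express, rose from 437, 228 and 340 CPM to 1415, 777 and 780 CPM (log2 change 1.55). The call of Cnn1 (log2 change -1.55) was lost without D0 replicate 1 (-1.58), D0 replicate 3 (-1.35), D2 replicate 2 (-1.08) or D2 replicate 3 (-1.5). Actb, Tagln and Myh9 overlapped between the stages.

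In the main fit genes of the ribosome, the proteasome and oxidative phosphorylation were called less often than the 24.8% over all genes. Of 80 ribosomal protein genes 9 were called lower and none higher (median log2 change -0.50), and of 38 proteasome genes 4 were lower and none higher (median -0.40). Without the replicate 1 libraries 20 and 14 were lower, in both lists a larger share than the 2503 lower of all 17672 genes. The proteasome genes were then not called less often than all genes, of which 5559 were called. With library totals alone 3 and 2 were lower, beside 1463 of all genes. In the main fit the lower calls of both lists were near the 10.6% over all genes tested. The contrast lay in the higher calls, which made up 14.1% over all genes. Rps2 fell most of those called, from 3069, 2987 and 3176 CPM to 1767, 1448 and 1274 CPM (log2 change -1.05). Ribosomal protein genes share reads with many processed copies, so single values are uncertain. The 81 oxidative phosphorylation genes had a median log2 change of -0.04, or 0.09 with library totals alone, with 3 higher and 2 lower (4 and 6 without the replicate 1 libraries, and 3 and 1 with library totals alone). The calls included the muscle subunits Cox8b and Cox6a2 (log2 changes 7.69 and 3.21), and that of Cyc1 (-0.72) was lost without D0 replicate 2 (-0.62), D0 replicate 3 (-0.59) or D2 replicate 3 (-0.62).

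**Figure D4:**
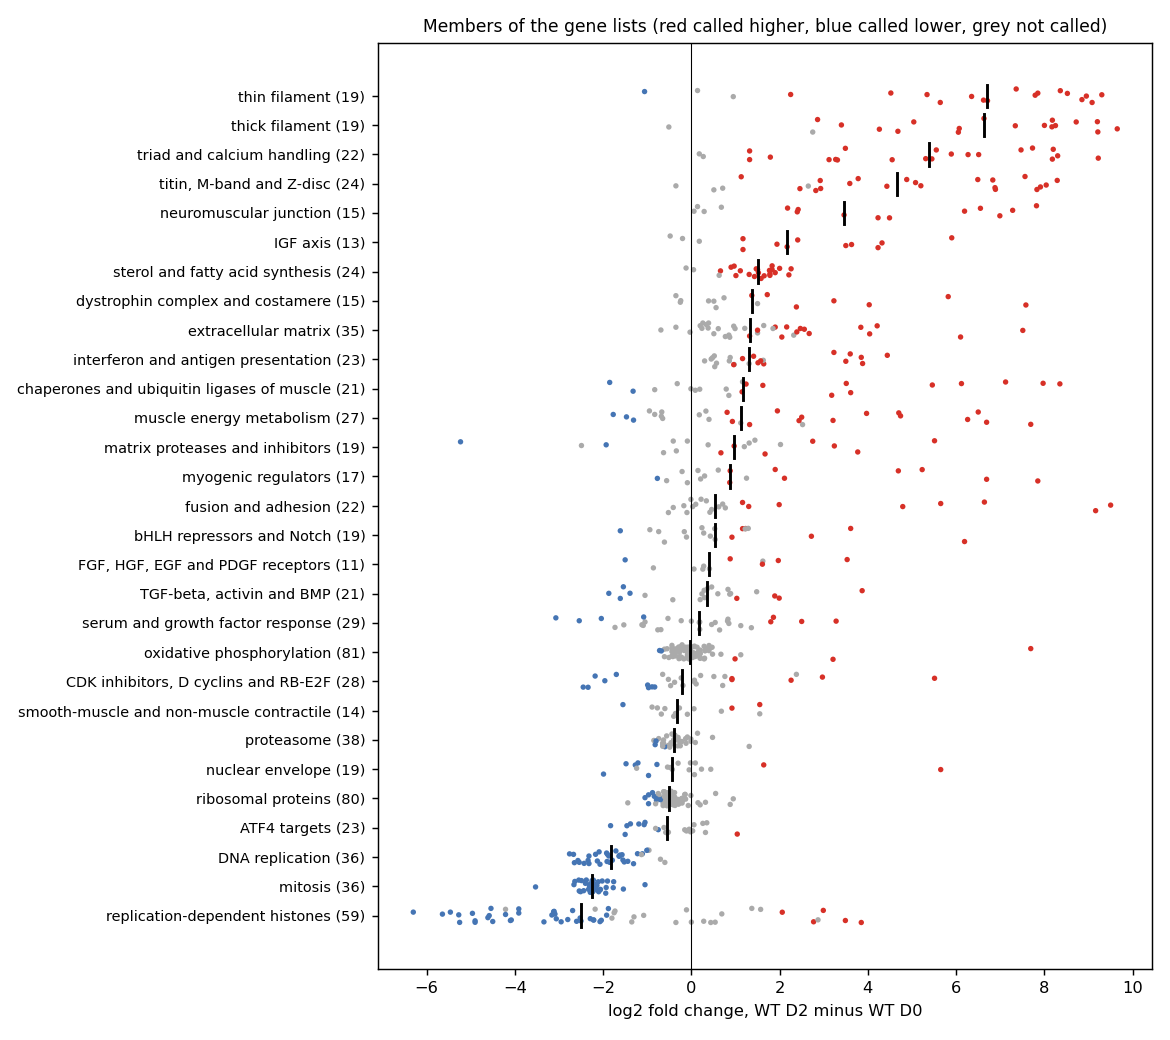
Log2 fold change (WT D2 minus WT D0) of each tested member of the 29 gene lists, with the number tested in brackets and the vertical bar at the median of the list. The sarcomere and triad lists have medians from 4.66 to 6.71, replication, mitosis and histone lists from -2.50 to -1.82, and the other lists lie between.

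Outside the lists, the genes with the largest changes above 10 CPM were partly muscle genes and partly of other kinds. Capn3, the muscle calpain, was at 0.117, 0.0172 and 0.0196 CPM and then at 42.5, 32.2 and 31 CPM, and its log2 change of 10 (SE 0.85, adjusted p = 1.09e-06) was the largest rise of all. Ablim3, an actin-binding protein, and Shisal1 rose by 9.37 and 9.56. Without D0 replicate 1, where each was highest at D0, the changes of Capn3, Ablim3 and Shisal1 were 10.89, 10.27 and 10.56, and without D0 replicate 3 that of Ablim3 was 8.56. Col2a1, the cartilage collagen, fell from 204, 29.7 and 44.5 CPM to 14.1, 1.93 and 2.69 CPM (log2 change -3.95, or -3.12 without D0 replicate 1 and -4.83 without D2 replicate 1). Irf5 fell from 49.5, 31.6 and 33.8 CPM to 9.33, 1.3 and 1.5 CPM (log2 change -3.83, or -4.75 without D2 replicate 1). The uncharacterized genes 1700012B09Rik and Gm44206 fell by 3.85 and 3.80, the former by 4.61 without D0 replicate 1 and by 3.26 without D2 replicate 1. Mir6236 and AY036118 are short annotated loci with very uneven counts. Mir6236 was at 374, 12 and 14.5 CPM at D0 and had 0 counts in each D2 library, at least 1343-fold lower against a floor of 3 counts in each library. That bound was 133-fold without D0 replicate 1, 1954-fold without D0 replicate 2 and 1942-fold without D0 replicate 3, and the call was lost without D0 replicate 1 (log2 change -9.86), D2 replicate 2 (-11.44) or D2 replicate 3 (-11.46). AY036118 ranged from 6.02 to 164 CPM at D0 and from 0.677 to 3.46 CPM at D2, and its call was lost without D0 replicate 1 (-4.01), D0 replicate 2 (-4.50), D2 replicate 2 (-4.83) or D2 replicate 3 (-4.45), with changes of -6.39 and -5.62 without D0 replicate 3 and D2 replicate 1.

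The labelled cell type was checked against marker genes. Of 7 myoblast markers in the table, 4 rose and 1 fell, and their summed level was 215 to 368 CPM at D0 and 714 to 1182 CPM at D2. All 7 myocyte and myotube markers rose, from a sum of 5.56 to 33.8 CPM to a sum of 3140 to 5796 CPM. At D0 Des was at 2.52 to 13.3 CPM, Cdh15 at 0.878 to 5.23 CPM and Myf5 at 24.1 to 37.1 CPM. Cartilage and bone markers were read at D0 (sum 110 to 392 CPM for 6 genes) and 3 of them fell, Alpl, Sp7 and Col2a1 by 3.25, 3.20 and 3.95. Among adipocyte markers Pparg fell by 1.42 (sum of 4 genes 15.5 to 31.8 CPM at D0 and 6.24 to 13.5 CPM at D2). The 3 of 6 endothelial markers analysed here summed to at most 2 CPM, with Tek higher by 2.83, and 3 of 5 glial ones to at most 3.14 CPM, with S100b higher by 2.66. Smooth muscle markers summed to 600 to 929 CPM and 1025 to 1837 CPM, mostly from Acta2 and Tagln, with Acta2 higher and Cnn1 and Myocd lower. The part of such cells in the changes above was not tested.

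LAP2alpha knockout cells passed through the same interval with a like number of calls, 4784 of 17672 (27.1%), 2626 higher and 2158 lower. Of the genes called in wildtype cells 3656 were called in the same direction in knockout cells, which is 83.5% of the wildtype calls and 76.4% of the knockout calls. The 2 comparisons take their means from different libraries. One fit over all 18 libraries gave the spread of each gene in both, so the 2 sets of calls are not independent. The test of the difference between the changes found no gene at an adjusted p under 0.05 (0%) in limma, and none with voom weights, while 315 genes had an unadjusted p under 0.05. The median standard error of that difference was 0.53 on the log2 scale against 0.38 for the wildtype change, which limits what could be detected in single genes. Myog changed by 7.85 in wildtype and 7.35 in knockout cells (difference -0.51, SE 0.98), Myod1 by 5.23 and 4.01 (difference -1.21, SE 0.75) and Cdkn1a by 5.51 and 4.32 (difference -1.18, SE 0.51). Capn3 changed by 10 and 7.39 (difference -2.61, SE 1.20, unadjusted p = 0.0455, adjusted p = 1). Dcn changed more in knockout cells, by 10.14 against 7.51, a difference that did not pass the test either. The median changes of the 29 lists differed by at most 0.60 between the lines. For the myogenic regulators the median was 0.27 in knockout and 0.87 in wildtype cells, and for energy metabolism 0.52 and 1.12. The sarcomere, triad, neuromuscular junction, fusion, dystrophin and chaperone lists also had smaller medians in knockout cells. Other lists went either way, with growth factor receptors at 0.97 in knockout and 0.41 in wildtype cells. These gaps were not tested.

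**Figure D5:**
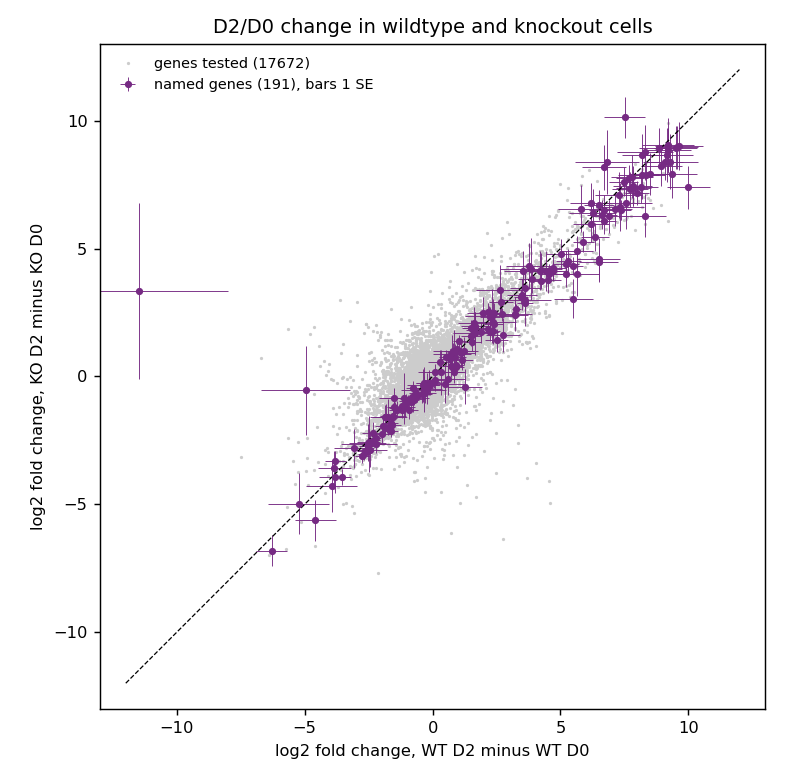
Log2 fold change from D0 to D2 in wildtype cells (horizontal) and knockout cells (vertical) for the 17672 genes tested in grey and the 191 named genes in purple, with bars of 1 standard error and a dashed line of equal change. Most named genes lie near the line, and Mir6236, at -11.47 and 3.34, lies farthest from it.

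The interval that ended at D0 showed little of this. Between proliferating wildtype cells and D0, 1 gene was called of 17672 (0.00566%), and 384 genes had an unadjusted p under 0.05. The median changes of the 29 lists over that step lay between -0.26 and 0.65. Myog was at a mean of 0.78 CPM in proliferating cells, 2.18 CPM at D0 and 393 CPM at D2, and Top2a at 715, 619 and 104 CPM. These side-by-side values share the D0 libraries and were not compared further.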

How the data were processed

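RNA-seq of poly(A) RNA was analysed from 18 libraries, 3 for each of 6 groups, and the 6 wildtype libraries of D0 and D2 were compared. The authors deposited CPM values scaled by library-specific factors, with an offset of 0.5 counts. The submitters' processing notes name cutadapt, RSEM, bedtools, edgeR and GRCm38. Expected counts were recovered from the lowest value of each library. Between 45.1% and 56% of the low counts were whole within 0.05, so no count model was run.

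A gene was kept when each library of at least 1 group held over 5 of these counts, and the 17672 genes kept were fitted on log2 CPM with limma 3.58.1 (R 4.3.3, trended variance), as 1 factor of 6 groups over 18 libraries. Benjamini-Hochberg adjustment ran over all genes. Intervals of count ratios are exact at 95% and, like the floor of 3 counts, cover counting error only.

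Named genes were the 8 largest rises and 8 largest falls among called genes with 10 CPM in a library and no overlap, the key members of each list, and each list's largest called rise and fall. Others were named outside these rules, among them Mef2a, Tead4, Mef2d, Tmem182, Itga7, Jam2, Pgam1, Phkg1 and single cell type markers. Only for Irf7, Usp18, Ifit3 and Mx2 does the text say so. Members and lists were chosen with earlier results of these data known. Msc, Pax7 and some other listed genes were not analysed here. Some named genes are not reported here. Alternatives were other scalings, filters, weights, blocks, thresholds and left-out libraries. Scripts were tested on simulated data, and figures were drawn with matplotlib 3.10.9.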

Additional observations from a re-analysis of the deposited data

How the results depend on the processing

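The replicate numbers were not taken to pair the libraries in the main fit, as the labels state no pairing. The deviations of same-numbered D0 and D2 libraries correlated at 0.454, 0.47 and 0.01, and D2 replicate 3 correlated best (0.28) with D0 replicate 2. Deviations within a group are tied through its mean, so these correlations cannot settle whether the numbers pair the libraries. The second principal component set both replicate 1 libraries apart. With the number as a fixed replicate block 6258 genes were called (3463 higher and 2795 lower), and with voom and a random replicate block 6299 (3497 and 2802), against 4376 (2494 and 1882). Fitting only the 6 libraries compared gave 2332 genes (1506 and 826). A minimum of 10 CPM gave 1499 higher genes, and a log2 change over 1.5 gave 2263 genes (1515 and 748). Leaving out 1 library at a time gave 2984 to 4916 called genes, 1762 to 2824 higher and 1222 to 2092 lower, the lowest counts without D0 replicate 3. Leaving out all replicate 1 libraries, chosen after seeing the data, gave 5559 genes (3056 and 2503). Library totals alone gave 33.4% lower among the calls against 43%. The difference between wildtype and knockout changes gave 0 to 1 genes when 1 library was left out (1 without WT D2 replicate 3 and 1 without KO D0 replicate 1). Of 152 named genes called, 126 kept their call in all 6 such fits and none reversed, and 20 lost it with only the 6 libraries. The causes were not tested.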
